A study of Mus musculus with 4 samples.

Results

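Hox genes encode homeodomain transcription factors that give cells along the body axis their positional identity, and in mammals they lie in 4 clusters, Hoxa, Hoxb, Hoxc and Hoxd. All genes whose symbol is Hoxa, Hoxb, Hoxc or Hoxd followed by a number were taken, which gave 39 of 33069 autosomal protein-coding and lncRNA genes, namely 11 in Hoxa, 10 in Hoxb, 9 in Hoxc and 9 in Hoxd. Each gene was measured over its span, the gene plus 2 kb on each side, and all 39 spans passed the coverage minimum, as did 32459 spans in all. The antisense genes Hoxa11os, Hoxb3os, Hoxb5os and Hoxd3os1 lie in the clusters and were not counted as members.

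DNA methylation had been measured by whole-genome bisulfite sequencing, which reads unmethylated cytosines as T and methylated ones as C, in microglia from the hippocampus. Microglia are the resident macrophages of the brain. There were 2 control libraries and 2 libraries from mice with fetal growth restriction (FGR), all from Tmem119-tdTomato+/- animals at 3 weeks postpartum, so the reporter allele is shared by both groups. How growth restriction was produced, the sex of the animals, how the cells were purified, and whether a library is 1 animal or a pool are stated in no source used here, so the spread between 2 libraries may be technical. The p-values of the main model below rest on that spread, moderated across regions and held at or above counting error. They need not measure variation between animals.

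The 13 genes of a full set are numbered by paralog group, and a cluster lies on its chromosome in the order of these numbers, with all its Hox genes read from the high towards the low numbers. Low numbers act towards the head, in the hindbrain, and high numbers towards the tail, limb ends and genitalia. Where Hox genes are silent, Polycomb complexes commonly hold them, and the CpG-rich DNA they cover is typically poor in methylation. RNA was not measured in these libraries, so the methylation below says nothing on its own about Hox expression.

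The tables listed 7615146 to 13578464 cytosines per library, with 49563150 to 91762720 reads summed over them, fewest in FGR 1 and most in FGR 2. No cytosine with under 5 reads was listed, and 8.89% of the autosomal CpGs listed anywhere were listed in all 4 libraries, so most CpGs compared between groups were not the same ones. Over all autosomes 76.0%, 76.3%, 74.6% and 75.6% of reads were methylated in control 1, control 2, FGR 1 and FGR 2, the order used throughout. The labelled cell type was checked at gene starts of marker genes fixed for this purpose. Of 8 microglia markers 4 could be measured, with means over the libraries of 0% to 11%. Cx3cr1 had 8.0%, 0%, 1.85% and 2.30%, and P2ry12 had 0%, 4.44%, 3.39% and 2.04%. The lymphocyte and blood monocyte genes Cd3e and Ccr2 had means of 80.8% and 90.5%, and the neuronal gene Rbfox3 had 84.6%, 79.2%, 93.3% and 83.3%. Of the other neuronal gene, Syt1, 1 start had 0%, 0%, 4.39% and 3.85%, as low as the microglia markers, and the other a mean of 66.7%. The astrocyte genes Aldh1l1 and Slc1a2 had means of 23.2% and 74.6%, and the endothelial gene Cldn5 had 24.3%. Olig2 of the oligodendrocyte lineage was also low, at 6.14%, 3.33%, 10.3% and 4.61%, while Mog of the same lineage had a mean of 56.2%. Mrc1 of border macrophages was low, at 5.50%, 3.70%, 11.7% and 10.4%, while Cd163, also of border macrophages, had a mean of 90.7%. The part of other cell types in the results below was not tested.

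The sequences around Hox starts show what was read. RefSeq promoter sequences of GRCm38.p6, from 250 bases before to 50 bases after a start, were at hand for 22 of the 39 genes with 24 starts. For each cluster the start with the lowest and the one with the highest control mean among them are printed, ranked by the level from 1 kb before to 1 kb after the start and not by the few CpGs of the printed stretch, 5′ to 3′ on the gene's strand, with every CG in capitals, since only these cytosines were scored. No measured Hoxc start was in that table.

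Of the Hoxa starts with a sequence, Hoxa10 start 1 of 2 (chr6:52240805-52241104, GRCm38.p6, minus strand) had the lowest level and Hoxa7 (chr6:52218524-52218823, minus strand) the highest. Hoxa10 acts in uterus and limb, and Hoxa7 in the thoracic skeleton.
Hoxa10 start 1: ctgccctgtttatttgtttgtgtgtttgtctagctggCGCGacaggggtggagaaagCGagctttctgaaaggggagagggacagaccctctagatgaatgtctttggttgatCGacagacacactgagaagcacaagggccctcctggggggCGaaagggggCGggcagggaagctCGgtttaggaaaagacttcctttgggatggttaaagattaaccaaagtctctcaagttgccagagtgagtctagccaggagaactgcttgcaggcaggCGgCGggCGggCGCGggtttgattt
Hoxa7: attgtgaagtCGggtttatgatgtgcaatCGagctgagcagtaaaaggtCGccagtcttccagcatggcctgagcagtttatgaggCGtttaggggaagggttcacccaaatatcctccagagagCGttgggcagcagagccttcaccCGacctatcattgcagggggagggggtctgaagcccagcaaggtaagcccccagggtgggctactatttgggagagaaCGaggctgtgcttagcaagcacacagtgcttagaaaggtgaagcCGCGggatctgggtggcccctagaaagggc

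For Hoxb, by the same start windows, the pair was Hoxb8 (chr11:96281655-96281954, plus strand), the lowest, and Hoxb4 (chr11:96318017-96318316, plus strand), the highest.
Hoxb8: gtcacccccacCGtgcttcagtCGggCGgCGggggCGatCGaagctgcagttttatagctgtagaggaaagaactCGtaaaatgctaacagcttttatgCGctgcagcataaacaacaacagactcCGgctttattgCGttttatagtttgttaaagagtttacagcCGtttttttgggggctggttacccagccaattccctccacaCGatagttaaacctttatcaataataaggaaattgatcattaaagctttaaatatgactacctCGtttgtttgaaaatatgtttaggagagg
Hoxb4: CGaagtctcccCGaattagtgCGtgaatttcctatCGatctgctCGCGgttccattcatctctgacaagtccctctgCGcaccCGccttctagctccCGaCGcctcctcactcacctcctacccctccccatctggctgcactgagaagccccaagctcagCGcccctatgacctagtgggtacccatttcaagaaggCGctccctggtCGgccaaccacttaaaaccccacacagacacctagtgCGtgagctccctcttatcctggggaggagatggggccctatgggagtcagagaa

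For Hoxd the pair was Hoxd8 (chr2:74704365-74704664, plus strand), the lowest, and Hoxd4 (chr2:74721728-74722027, plus strand), the highest.
Hoxd8: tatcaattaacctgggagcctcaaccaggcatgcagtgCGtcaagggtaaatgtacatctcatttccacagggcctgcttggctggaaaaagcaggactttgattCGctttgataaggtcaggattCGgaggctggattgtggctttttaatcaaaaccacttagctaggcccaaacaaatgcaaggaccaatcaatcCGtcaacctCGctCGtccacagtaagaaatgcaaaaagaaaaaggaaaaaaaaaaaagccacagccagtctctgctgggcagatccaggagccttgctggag
Hoxd4: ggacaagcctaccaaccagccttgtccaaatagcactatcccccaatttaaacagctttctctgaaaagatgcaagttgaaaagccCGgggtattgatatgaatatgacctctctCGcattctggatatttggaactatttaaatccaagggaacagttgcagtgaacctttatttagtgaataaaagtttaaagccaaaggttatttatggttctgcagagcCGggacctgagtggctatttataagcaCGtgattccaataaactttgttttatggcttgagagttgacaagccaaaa

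These 300-base sequences hold 12, 9, 13, 14, 6 and 4 CG in the order printed. CG was found in 94.7% of 31365 autosomal promoter sequences of the same length, with a median of 7, and the Hox promoters held 4 to 45 with a median of 14.5 (CG reads the same on both strands). Few of these sites passed the coverage minimum in a library. In the Hoxa10 sequence 5 of 35, 0 of 15 and 5 of 25 reads were methylated in control 1, control 2 and FGR 1, with no CpG listed in FGR 2. In the Hoxa7 sequence 2 of 26, 3 of 22, 8 of 47 and 12 of 64 reads were methylated, and in the Hoxb8 sequence 12 of 79, 1 of 5, 3 of 39 and 1 of 22. In the Hoxb4 sequence only control 1, with 1 of 35 reads methylated, and FGR 1, with 6 of 45, listed any CpG. In the Hoxd8 sequence 1 of 15, 2 of 5 and 3 of 20 reads were methylated in control 2, FGR 1 and FGR 2. In the Hoxd4 sequence 6 of 13, 4 of 15 and 8 of 33 reads were methylated in control 1, control 2 and FGR 1. In control 1 the order within the printed stretches was thus the reverse of that in the start windows for the Hoxa and the Hoxb pair. Control 2 kept the order for Hoxa and Hoxd. FGR 1 kept it for Hoxb and reversed it for Hoxa and Hoxd. The 300 bases at a start were thus too thinly covered to compare the groups, and the comparisons below use wider windows.

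Each Hox cluster was an island of low methylation in a methylated surrounding, in all 4 libraries. The Hoxa cluster, from 2 kb before its first to 2 kb after its last Hox gene (chr6:52153367-52262880), had levels of 14.3%, 15.5%, 12.6% and 17.1%, where the level is methylated reads over all reads at the listed CpGs. Hoxb (chr11:96192316-96370254) had 36.0%, 31.9%, 27.4% and 32.5%. Hoxc (chr15:102919131-103038856) had 10.4%, 9.92%, 10.3% and 10.3%, and Hoxd (chr2:74666225-74767142) had 21.4%, 21.7%, 22.2% and 21.8%. Hoxc was thus the lowest and Hoxb the highest of the 4 in every library. Wilson 95% intervals of these levels were at most 2.82 points wide and cover counting error only, although CpGs on 1 read are not independent.

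The 100 kb on the 2 sides of a cluster together had mean levels of 65.2% around Hoxa, 62.1% around Hoxb, 56.1% around Hoxc and 65.2% around Hoxd. Within a library the mean difference, cluster minus flanks, was -50.3 points for Hoxa (SD 2.35, n = 4 libraries), -30.1 for Hoxb (SD 2.60), -45.9 for Hoxc (SD 2.13) and -43.4 for Hoxd (SD 4.27), and the cluster was lower in 4 of 4 libraries for each cluster. The size of that gap depended on how far the flanks reached. With flanks of 50 kb it was -41.4, -23.2, -36.2 and -33.8 points, and with flanks of 500 kb -65.0, -39.6, -55.9 and -54.0. The clusters were also denser in CpGs, with 16.9, 12.1, 12.3 and 14.2 CpGs per kb listed in at least 1 library against 5.87 to 10.2 in the flanks, and the part of CpG density in the gap was not tested.

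**Figure D1:**
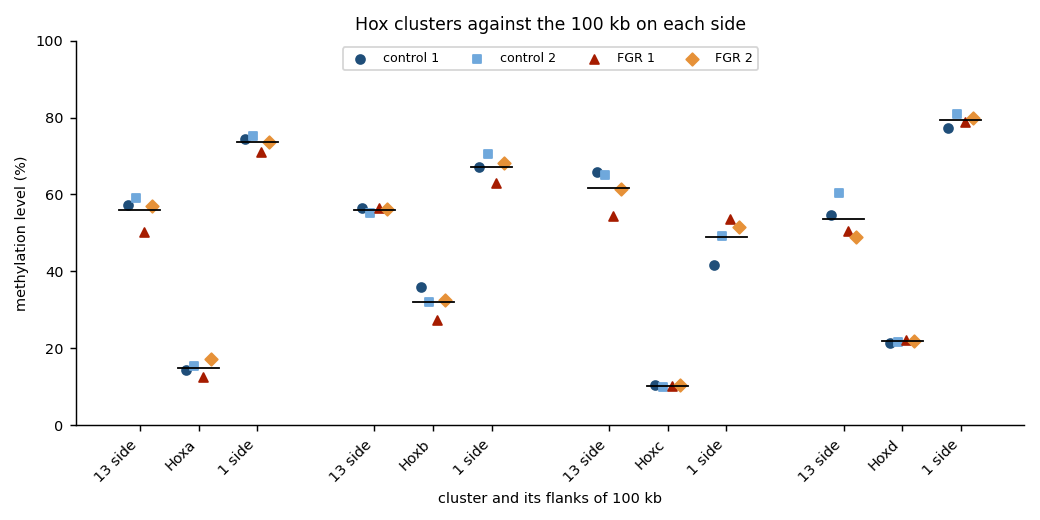
Methylation level in percent of each Hox cluster and of the 100 kb beside it on the side of gene 13 and on the side of gene 1, 1 point per library and a black line at the mean of the 4 libraries. Every cluster sits below both of its flanks in all 4 libraries, with the smallest gap at Hoxb.

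On the side of gene 13 the low stretch went on beyond the last Hox gene. In windows of 4 kb, the first window above 50% in all 4 libraries lay 18 kb beyond the cluster on the side of gene 13 for Hoxa, 26 kb for Hoxb, 18 kb for Hoxc and 22 kb for Hoxd. On the side of gene 1 it lay closer, at 12.5, 12.1, 6.27 and 1.1 kb, and in Hoxb and Hoxd windows above 50% in all 4 libraries already lay inside the cluster near that end. In Hoxd the window over Hoxd1, 98 kb from the other edge, had 51.5%, 67.5%, 74.1% and 59.2%. These distances run from the cluster edge, itself 2 kb outside the gene, to the middle of the window. Evx2, a homeobox gene beyond Hoxd13, had a span level of 19.0%, 23.9%, 9.86% and 13.6%, and Evx1, its counterpart beyond Hoxa13, had 19.4%, 32.6%, 21.2% and 24.3%.

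**Figure D2:**
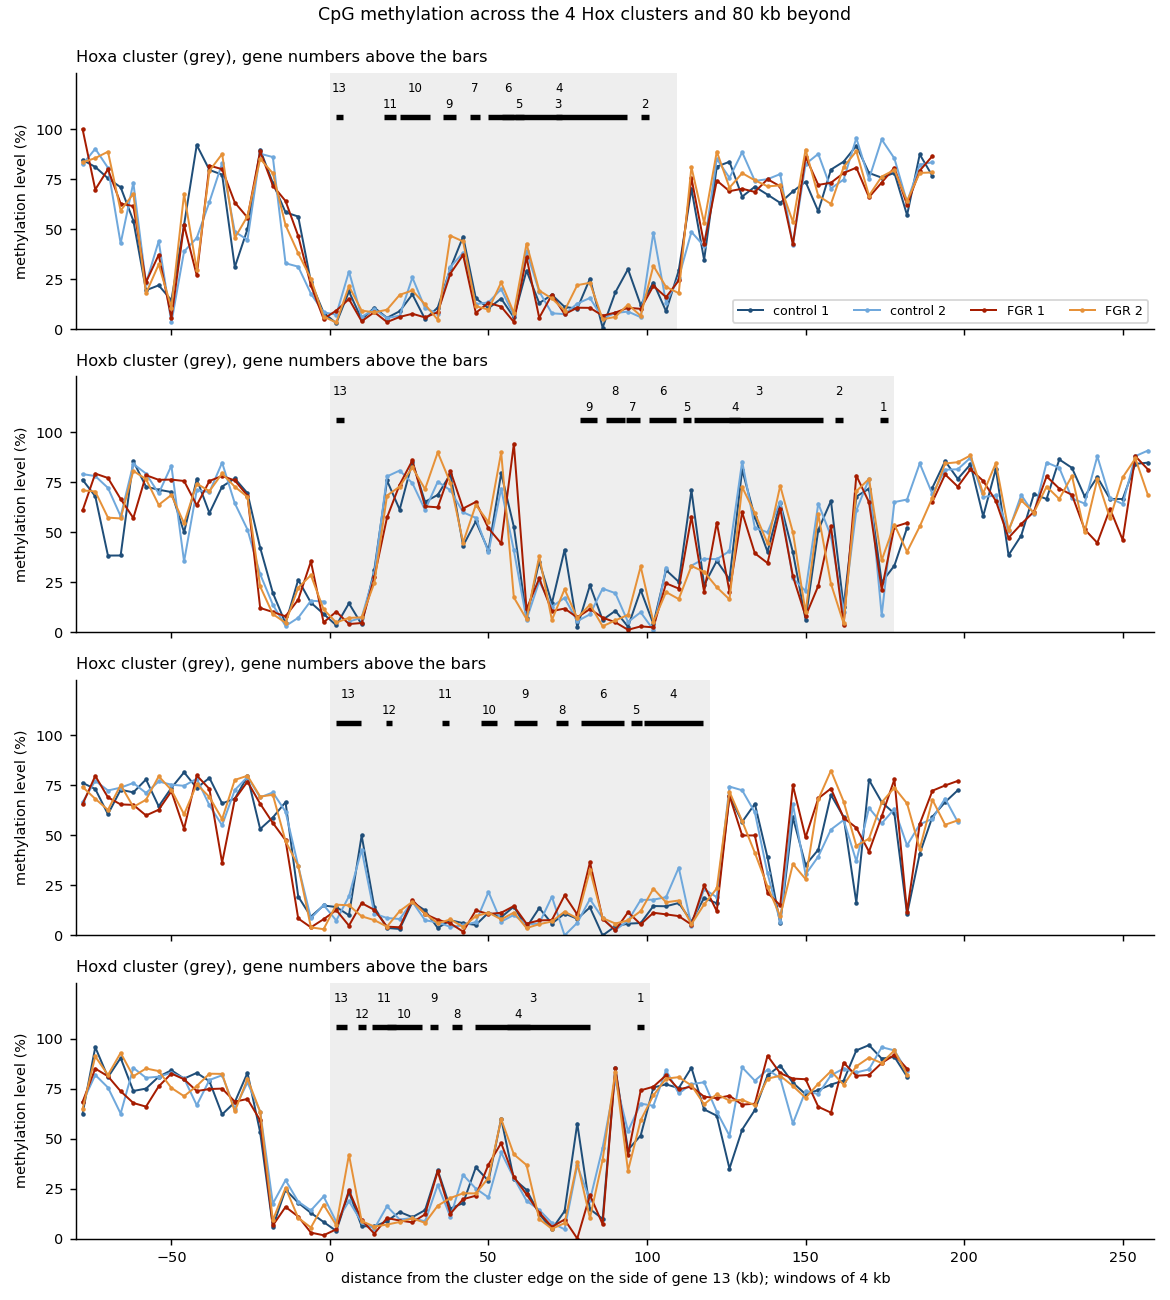
Methylation level in percent in windows of 4 kb along the 4 Hox clusters (grey) and 80 kb beyond, oriented from the side of gene 13 on the left to the side of gene 1 on the right, 1 line per library; black bars mark the genes with their numbers, and a window with under 10 reads in a library has no point. The 4 libraries share the main shape but part in single windows, such as the one 58 kb into Hoxb, with a methylated block between Hoxb13 and Hoxb9 and rises at Hoxa9, at Hoxb5 to Hoxb3 and towards Hoxd1.

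The clusters were not low throughout. Of 154 tiles of 1 kb that could be measured in the clusters, 73 were below 20% in all 4 libraries, a share of 47.4% against 1.26% of 550538 autosomal tiles. Another 15, or 9.74%, were above 50% in all 4 libraries, against 84.4% of autosomal tiles. By cluster the tiles below 20% in all libraries were 25 of 52 in Hoxa, 13 of 37 in Hoxb, 19 of 28 in Hoxc and 16 of 37 in Hoxd. Of the 15 methylated tiles 8 lay in Hoxb, and 5 of these between Hoxb13 and Hoxb9. The 70.7 kb between the spans of these 2 genes (chr11:96198611-96269329), where the paralogs 10, 11 and 12 have no Hoxb member, had a level of 44.5%, 35.7%, 41.7% and 41.8%, while the stretch from Hoxb9 to Hoxb1 had 30.8%, 29.6%, 20.8% and 27.8%. The other methylated Hoxb tiles were 2 within the long Hoxb3 gene and 1 between Hoxb2 and Hoxb1.

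In Hoxa the methylated tiles were at the Hoxa9 gene (chr6:52223001-52224000), with 64.8%, 80.3%, 65.9% and 73.4%, and 428 bp outside Hoxa7 (chr6:52219001-52220000), with 81.5%, 53.8%, 73.3% and 67.6%. Hoxc had 1, within Hoxc6 (chr15:103002001-103003000), with 66.7%, 61.8%, 65.8% and 70%. Hoxd had 4, all on the side of gene 1. Of these, 2 touched Hoxd1, and the one at chr2:74765001-74766000 had 90.7%, 81.8%, 88.2% and 85.7%. Between Hoxd3 and Hoxd1 the tile chr2:74755001-74756000 reached 100%, 88.5%, 97.1% and 92.2%. At single CpGs listed in all 4 libraries the same mixture was seen, with 114 of 220 below 20% and 22 above 80%, of which 9 were in Hoxb, 9 in Hoxd, 4 in Hoxa and 0 of 45 in Hoxc.

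Among genes, Hox spans stood at the low end. The median control level of the 39 spans was 13%, against 75.3% over all 32459 spans, and 29 of 39 Hox spans (74.4%) were below 20%, as were 386 of all spans (1.19%). The Hox spans lay between percentile 0.0555 and percentile 9.42 of all spans, with a median of 0.650. All 9 Hoxc spans were below 20%, with 8 of 11 in Hoxa, 6 of 10 in Hoxb and 6 of 9 in Hoxd. The spans are not independent of each other, since 29 of them overlap a neighbour and the 5514 distinct listed CpGs count 6704 times over the 39 spans.

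Levels were higher towards the low gene numbers, most of all in Hoxb and Hoxd. Spearman's rho between gene number and control level was -0.93 across the 9 Hoxd genes and -0.79 across the 10 Hoxb genes, and it was -0.28 across the 11 Hoxa genes, -0.30 across the 9 Hoxc genes and -0.61 across all 39. With the FGR level it was -0.72, -0.61, -0.22, -0.37 and -0.53 in the same order. These are descriptions across genes that share libraries, depth and partly CpGs, so no test was made. The 12 genes of groups 1 to 4 had a median of 20.2%, the 11 of groups 5 to 8 one of 11.5% and the 16 of groups 9 to 13 one of 9.16%. In FGR the same medians were 20.7%, 12.9% and 9.75%.

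**Figure D3:**
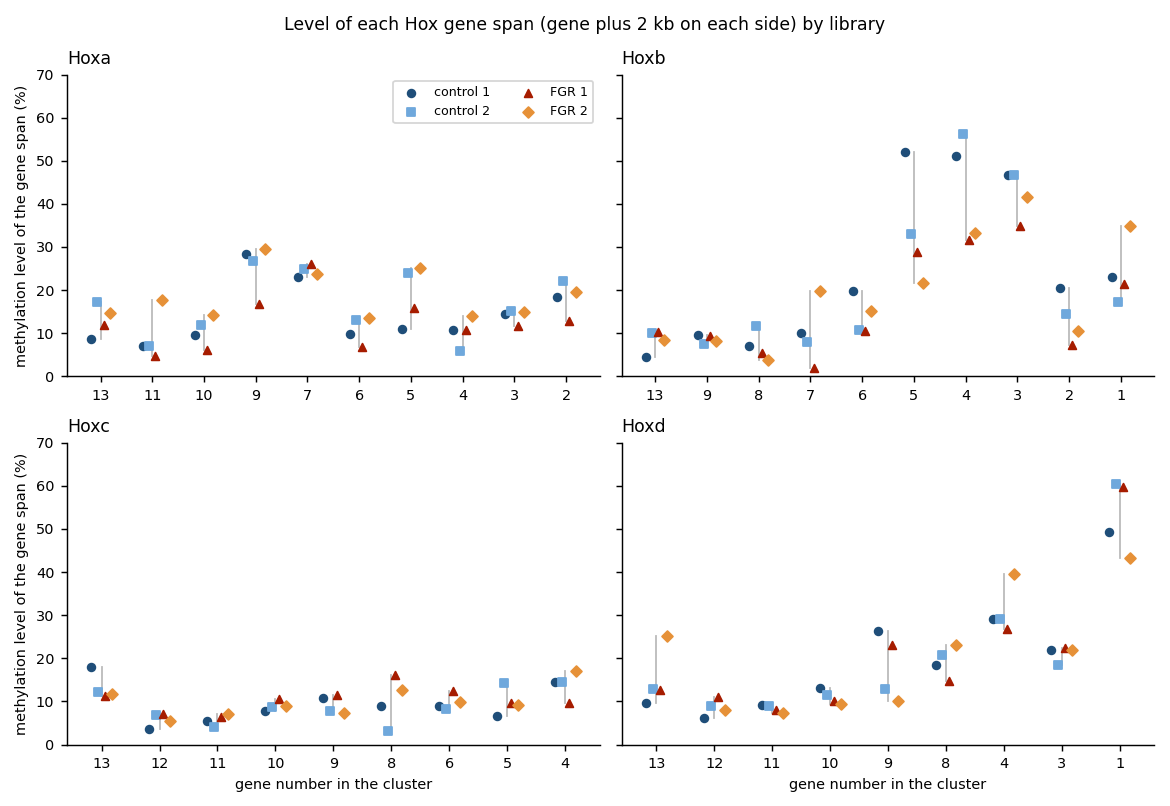
Methylation level in percent of the Hox gene spans reported here, ordered by gene number from the tail end to the head end of each cluster, 1 marker per library and a grey line over their range. Hoxc stays under 20% in every library, and Hoxb5, Hoxb4, Hoxb3 and Hoxd1 stand highest.

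Paralogs, the copies of 1 ancestral gene in different clusters, differed most in group 4. There the control mean ran from 8.38% at Hoxa4 to 53.6% at Hoxb4, a range of 45.3 points. Groups 5 and 3 spread over 32.1 and 31.8 points, with Hoxb5 and Hoxb3 at the top. Groups 2, 10, 11 and 12 spread over only 2.73, 4.12, 4.34 and 2.36 points, with just 2 members each in groups 2 and 12.

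By control mean, which ranks the spans in these paragraphs, the lowest spans of all were in Hoxc. Hoxc11 (chr15:102954526-102956701) had 5.35%, 3.97%, 6.38% and 6.98%, and Hoxc12 had 3.54%, 6.77%, 6.99% and 5.53%. Hoxc13, which acts in hair and nails, had the highest control mean of its cluster, at 17.9%, 12.2%, 11.3% and 11.8%, while in FGR the means of Hoxc8 and Hoxc4, 14.4% and 13.4%, were higher. The other 6 Hoxc genes had control means between these, from 6.11% at Hoxc8 to 14.5% at Hoxc4.

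In Hoxa the lowest span was Hoxa11 (chr6:52242105-52245810), a gene of the forearm and uterus, with 7.05%, 7.08%, 4.76% and 17.7%, in which FGR 2 stood apart. The highest was Hoxa9 (chr6:52223097-52227370), a gene of blood stem cells, with 28.4%, 26.7%, 16.8% and 29.6%, in which FGR 1 stood apart. At the 7 Hoxa9 CpGs common to the 4 libraries, levels were 73.8%, 74.6%, 71.8% and 78.3%, and FGR 1 was close to the rest there. Before the start of Hoxa9 the 2 kb had 11.8%, 0%, 2.22% and 5.15% at 4 to 12 CpGs per library. Hoxa7 was the next highest, at 23.0%, 25%, 26% and 23.8%.

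In Hoxb the high spans were neighbours. Hoxb3, with a gene body of 40.8 kb that takes in Hoxb4, had 46.6%, 46.6%, 35% and 41.5%, and Hoxb5 had 51.9%, 33.0%, 28.8% and 21.5%. Both genes act in the hindbrain and neck. The lowest Hoxb span by control mean was Hoxb13 (chr11:96194316-96196610), a gene of tail and prostate, with 4.40%, 10%, 10.3% and 8.37% at 20 to 251 reads per library. Hoxb8 was lower in both FGR libraries, with 7.09%, 11.7%, 5.35% and 3.71%. Hoxb7, Hoxb8 and Hoxb9 were also under 10% in the control mean, and Hoxb1, Hoxb2 and Hoxb6 lay between 15.3% and 20.2%.

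Hoxd had the steepest slope along its genes. Hoxd12 (chr2:74675013-74677705) had 6.17%, 8.86%, 11% and 7.96%, and Hoxd1 (chr2:74762980-74765142), at the other end, had 49.3%, 60.4%, 59.6% and 43.2%. Within the Hoxd1 span the 2 kb before the start had a control mean of 38.0%, the gene body 54.0% and the 2 kb after the end 83.2%. Hoxd4 was second, at 29.2%, 29.1%, 26.9% and 39.6%, and the control means of Hoxd11, Hoxd13, Hoxd10, Hoxd9, Hoxd8 and Hoxd3 went from 9.0% to 20.2%. This order depended on the CpGs used. At the 3 CpGs of Hoxd9 common to the 4 libraries, levels were 66.7%, 73.3%, 94.7% and 66.7%. The 5 such CpGs of Hoxd1 had 48%, 71.9%, 63.2% and 60%.

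Most gene starts were low. A start was taken from the RefSeq promoter table, or else as the end of the gene that faces the next higher number, and was measured from 1 kb before to 1 kb after. Of 41 Hox starts 28 could be measured in every library, and their median control level was 8.68% against 51.4% over 22566 starts of all genes. Below 20% were 24 of the 28 (85.7%), against 27.8% of all starts. At 8 of the 28 the control mean was above that of the gene's whole span, among them Hoxb2, Hoxd4, Hoxc10 and Hoxb8. The other 13 starts, among them those of Hoxb3, Hoxb5 and Hoxd3, had too few CpGs in at least 1 library.

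Hoxb2, Hoxd4 and Hoxb4, all in groups 1 to 4, were among the starts above 20%. Hoxb2 had 55.6%, 40.5%, 42.9% and 18.7%, and Hoxd4 had 44.6%, 31.5%, 22.7% and 45%. At both of these starts the groups overlap. The Hoxb2 start held only 3 CpGs in control 1 and in FGR 1, with 18 and 21 reads, against 74 reads in control 2 and 150 in FGR 2. Among the lowest were Hoxb7, with 2.78%, 2.0%, 1.96% and 2.04%, and Hoxd8, with 3.33%, 2.0%, 5.41% and 9.26%. Spearman's rho between gene number and control level over the 28 starts was -0.44, closer to 0 than over the spans, and with the FGR level it was -0.27.

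The study's comparison was that of FGR with control. In the Hox clusters no gene span was called different. A quasi-binomial model of methylated and unmethylated reads was fitted to all 32459 spans together, and a span was called where its p, adjusted after Benjamini and Hochberg, was under 0.05 and the groups were 10 or more percentage points apart. Of the 39 Hox spans 0 were called, as were 0 of all spans (0%), and the smallest adjusted p of a Hox span was 0.716. At an unadjusted p under 0.05 there was 1 Hox span, Hoxb4, where 6.28% of all spans passed, and limma on log2 methylated-to-unmethylated ratios gave 3 of 39 at that level, where its share of all spans was 5.92%, and 0 called. An exact permutation test over 2 against 2 libraries has 6 assignments and cannot go below a two-sided p of 0.333, so none was used.

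The differences, FGR minus control, were higher for 20 Hox spans and lower for 19, with a median of 0.144 points. Over all spans 62.1% were lower in FGR and the median was -1.12 points. Within 5 points of 0 were 32 of the 39 Hox spans, and 30 differed by no more than the larger gap between the 2 libraries of a group. Both FGR libraries were below both controls in 8 of 39 spans, where 25% of all spans were, and above both in 4, where 11.1% were. The direction by cluster was 6 higher and 5 lower in Hoxa, 4 and 6 in Hoxb, 6 and 3 in Hoxc, and 4 and 5 in Hoxd. Of the 8 spans with both FGR libraries lower, 5 were in Hoxb, namely Hoxb2, Hoxb3, Hoxb4, Hoxb5 and Hoxb8, and the Hoxb3 span overlaps those of Hoxb2, Hoxb4 and Hoxb5. The 4 spans with both FGR libraries higher, Hoxc6, Hoxc8, Hoxc10 and Hoxc11, were all in Hoxc.

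**Figure D4:**
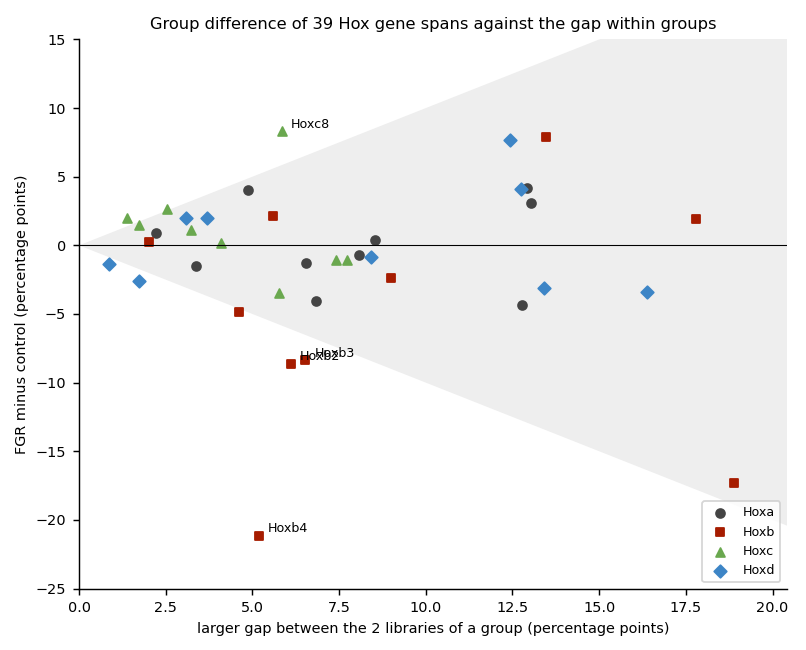
Difference FGR minus control of the Hox gene spans reported here in percentage points against the larger of the gaps between the 2 libraries of a group, also in points; in the grey area the difference is no larger than that gap. Most spans lie within it, and Hoxb4, at -21.1 points, lies farthest outside.

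The member with the smallest p was Hoxb4 (chr11:96318267-96321638), a gene known for the expansion of blood stem cells. Its span had levels of 51.0% and 56.2% in control and 31.7% and 33.3% in FGR, that is 53.6% ± 3.66 against 32.5% ± 1.1 (SD, n = 2 each). Both FGR libraries lie below both controls, by more than the gap within either group. The difference was -21.1 points, with an unadjusted p of 0.00659 and an adjusted p of 0.716 in the quasi-binomial model with limma's moderated overdispersion.

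That difference did not run through the span. In the gene body alone the levels were 41.2%, 4.76%, 54.2% and 26.5%, at 4 to 35 CpGs per library, so that the mean was 17.4 points higher in FGR and the groups overlapped. In the 2 kb before the start they were 28.8%, 45.8%, 20.3% and 23.9%, and in the 2 kb after the end 82.4%, 86.9%, 63.9% and 75%, both FGR libraries being lower in each. The 6 CpGs of the span that every library listed had 46.3%, 63.8%, 43.8% and 47.8%. The groups overlap there, the difference was -9.30 points, and the quasi-binomial model gave an adjusted p of 0.969.

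The part before the start was seen in a tile of 1 kb (chr11:96317001-96318000), which lies within Hoxb3 and ends just before the Hoxb4 promoter sequence printed above. Its levels were 39.6% and 47.8% in control and 23.3% and 23.7% in FGR at 92 to 156 reads per library. The difference was -20.2 points, with an unadjusted p of 0.00290 and an adjusted p of 0.349 over 550538 tiles. Here 19 of the 20 listed CpGs were read in both groups, and over these the pooled levels were 43.3% in control and 23.7% in FGR. FGR was lower at 11 of them, higher at 5 and equal at 3. Pooling weights each CpG by its reads, and these weights differed between the groups. From -503 to -457 bp, control 1 had 5 to 7 reads per CpG and control 2 had none. FGR 1 had 12 to 14 there and FGR 2 had 9 to 12. The pooled difference thus also reflects which CpGs were read most. At the 4 CpGs that every library listed, the difference was -2.58 points.

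**Figure D5:**
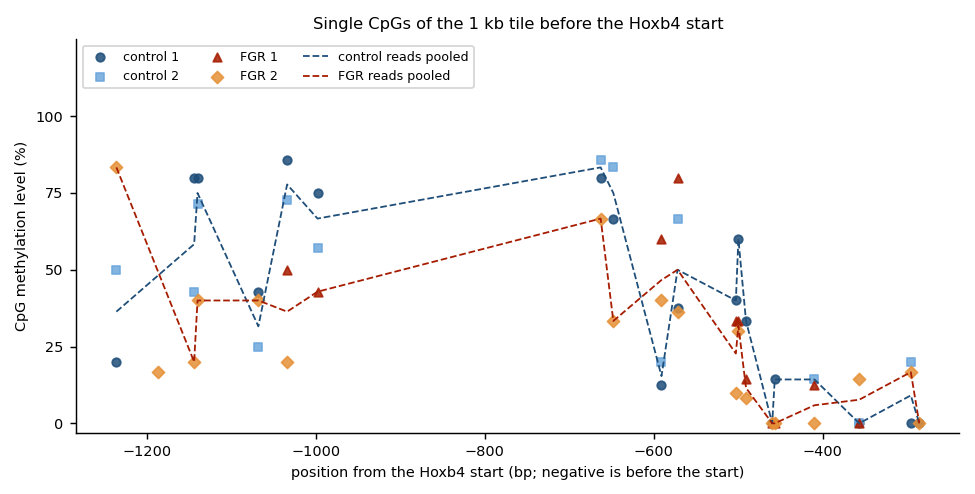
Methylation level in percent of the 20 CpGs listed in the 1 kb tile before the Hoxb4 start, by distance from the start in bp, 1 marker per library that lists the CpG; dashed lines join the levels of the pooled control reads and of the pooled FGR reads at the 19 CpGs read in both groups. FGR is lower at 11 of these CpGs and higher at 5, and levels are low in both groups close to the start.

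Neighbours of Hoxb4 also had lower means in FGR, and none passed the test. Hoxb5 had a difference of -17.3 points, with an adjusted p of 0.806 in the quasi-binomial model, and no CpG of its span was listed in all 4 libraries. Its controls, at 51.9% and 33.0%, were farther apart than this difference. Hoxb3 differed by -8.37 points and Hoxb2 by -8.61 points, with adjusted p values of 0.806 and 0.839. The 13 Hoxb3 CpGs common to the 4 libraries had 58.5%, 64.3%, 55.7% and 54.1%, both FGR libraries again lower. The Hoxb3 span takes in the whole Hoxb4 span, so these 13 include the 6 of Hoxb4. Both Hoxb3 differences thus partly count Hoxb4 again and are not separate from it. The 6 Hoxb2 CpGs common to the 4 libraries had 0%, 3.33%, 2.86% and 2.13%, and the groups overlap. Over the whole Hoxb cluster the difference was -3.97 points, smaller than the 4.07 points between the controls and the 5.11 points between the FGR libraries. Comparing libraries pair by pair at the CpGs both list, it was -2.23 points on average, lower in 3 of 4 pairs, with 6.28 points between the 2 FGR libraries. The 47 Hoxb CpGs that every library listed had 47.0%, 45.1%, 41.6% and 42.5%, again -3.97 points, and there both FGR libraries were below both controls. The 6 of Hoxb4, at 46.3%, 63.8%, 43.8% and 47.8%, are among these 47, and their part in the separation was not tested.

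In the other clusters the groups were less than 1 point apart over all listed CpGs, but not with other CpG sets. Over all listed CpGs Hoxa differed by -0.0512 points, Hoxc by 0.145 points and Hoxd by 0.450 points, and only in Hoxd did the groups not overlap. In Hoxd the pair by pair differences were 0.202 to 1.19 points, of the size of the 0.977 points between controls and the 0.863 points between FGR libraries. The 45 Hoxc CpGs that every library listed had 10.9%, 10.5%, 14.2% and 11.8%, both FGR libraries being above both controls by a mean of 2.34 points, and the 54 of Hoxa had 26.5%, 31.0%, 28.1% and 37.8%, a difference of 4.23 points with overlapping groups. At a minimum of 10 reads per CpG the Hoxd difference was -2.38 points.

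The member with the largest difference towards higher levels in FGR was Hoxc8 (chr15:102990539-102994275), which acts in trunk motor neurons, with 9.04% and 3.19% in control and 16.2% and 12.6% in FGR. Its span held 51, 15, 12 and 28 listed CpGs, and no CpG of it was listed in all 4 libraries. The difference of 8.30 points had an adjusted p of 0.881 in the quasi-binomial model. It was 5.38 points without control 2 and 1.75 points with an extension of 5 kb. Hoxb1, the hindbrain gene of group 1, had 23.1%, 17.3%, 21.3% and 34.8%, and Hoxd13, a gene of the digits, 9.69%, 12.9%, 12.7% and 25.2%. In both, FGR 2 was the highest library and FGR 1 lay within the control range. Hoxa4 had 10.8%, 5.94%, 10.8% and 14.1% (difference 4.04 points, adjusted p = 0.898 in the quasi-binomial model).

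At CpGs listed in all 4 libraries 22 of the 39 Hox spans could be tested. Of these 0 were called, where 0.00757% of 26421 spans were, and 0 had an unadjusted p under 0.05, where 5.72% did. FGR was higher in 11 and lower in 11, where 53.7% of all were lower. The smallest unadjusted p was 0.0711 at Hoxa3, with 24.4%, 21.8%, 29.2% and 31.9%, while over all its listed CpGs Hoxa3 had 14.5%, 15.1%, 11.6% and 15%. The sign of the Hoxa3 difference thus turned with the CpGs used, and it did so for 11 of the 22 spans, among them Hoxa9, Hoxd1 and Hoxd12. The Hoxa3 span takes in those of Hoxa4, Hoxa5 and Hoxa6, so its 19 shared CpGs include theirs. In limma's test 1 of the 22 passed the unadjusted level, where 5.4% of all did, and 0 were called.

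Of the 28 Hox starts 0 were called, as were 0 of all 22566 (0%). With overdispersion varying as fitted, the test recovered 0 of 50 simulated starts even at 60 points. The count of 0 therefore cannot show that the starts were alike. An unadjusted p under 0.05 was reached by 0 Hox starts, where 6.11% of all starts did. By limma 1 Hox start passed that level, where 5.23% of all starts did, and 0 were called. Both FGR libraries were below both controls at 6 of 28 starts (18.6% of all starts) and above at 5 (15.2%). The FGR mean was higher at 10 and lower at 18, where 53.3% of all starts were lower. The 5 measured Hoxb starts were all lower in the FGR mean, from -17.3 points at Hoxb2 to -0.39 points at Hoxb7, though Hoxb2, Hoxb6 and Hoxb7 overlapped between groups. Hoxc13 had 12% and 4.55% in control against 25.6% and 19.0% in FGR (adjusted p = 0.887), and Hoxa4 had 0% of 16 reads, which allows a level of up to 18.8%, and 3.0% against 11.9% and 10.3% (adjusted p = 0.891). Both FGR libraries were lower at Hoxd1, with 7.27% and 26.5% against 6.52% and 3.53%, at Hoxc10, with 16.1% and 8.0% against 0% of 17 reads, which allows up to 17.6%, and 5.74%, and at Hoxa6, with 8.16% and 14.3% against 2.41% and 7.02%. None of these 5 had an adjusted p below 0.887. The least methylated Hoxc start, Hoxc12, had 2.67%, 6.82%, 5.88% and 3.45%.

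Of the 154 tiles of 1 kb in the clusters 0 were called, where 0.153% of all tiles were, and 14 (9.09%) had an unadjusted p under 0.05, where 5.76% of all tiles did. Of these 14, 7 lay in Hoxa, 5 in Hoxb, 1 in Hoxc and 1 in Hoxd. The smallest p was that of a tile 398 bp after Hoxd13 (chr2:74672001-74673000), with an adjusted p of 0.333 in the quasi-binomial model. The tile had 3.33% and 2.99% in control and 18.6% and 30% in FGR. No CpG of it was listed in all 4 libraries, and at the 15 read in both groups the pooled levels were 3.09% and 6.45%, a difference of 3.36 points in place of 21.1. A tile 187 bp after Hoxc13 (chr15:102929001-102930000) had 50%, 41.2%, 20% and 13.3% at 3 or 4 CpGs per library (adjusted p = 0.610), of which 2 were read in both groups.

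The genes that act with or on Hox genes were described from fixed lists, by the same span fit. Of 9 TALE cofactors, homeodomain proteins of the Pbx, Meis and Pknox families that bind DNA together with Hox proteins, 0 were called, 2 had higher and 7 lower means in FGR, where 62.1% of all spans were lower, with a median difference of -1.85 points against -1.12 over all spans. Their median control level was 77.8%, near the 75.3% of all spans. Meis1 had 83.6%, 85.2%, 78.7% and 80.3%, both FGR libraries lower, with an unadjusted p of 0.00864 and an adjusted p of 0.716. Of 6 ParaHox and Cdx genes, relatives of the Hox genes outside the clusters, 5 were measured, with a median control level of 6.69%. Pdx1, of the pancreas, had 6.42%, 6.90%, 11.1% and 6.83%, and Cdx2, of the gut and a regulator of Hox genes, had 4.73%, 6.98%, 6.83% and 7.95%. Cdx1 was methylated, at 79.3%, 62.2%, 82.0% and 72.2%. None was called, with 3 higher and 2 lower in FGR and a median difference of 1.53 points.

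Of 17 genes in or beside the clusters 16 were measured and 0 called, with 8 higher and 8 lower and a median difference of -0.43 points, although the median level of the list was 64.7% in control and 70.1% in FGR. The lncRNA genes of this list were also under 20% in every library. Hotairm1 in Hoxa had 15.6%, 15.1%, 14.7% and 18.4%, and Hottip, which lies beyond Hoxa13, had 7.79%, 14.3%, 7.19% and 15.7%. Hotair in Hoxc had 13.7%, 13.6%, 7.26% and 13.8%. Hotair lies between Hoxc12 and Hoxc11 and was above both in every library. An unadjusted p under 0.05, which 6.28% of all spans had, was reached by Smug1, a DNA repair glycosylase gene beside Hoxc, with 63.5%, 63.6%, 48.1% and 47.0%, by Lnpk beside Hoxd, with 91.1%, 90.5%, 76.0% and 83.5%, and by Evx2. Their adjusted p values were 0.716, 0.716 and 0.777. In all 3 both FGR libraries were lower, as in 25% of all spans.

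Of 16 Polycomb and trithorax genes, whose products keep Hox genes silent or active, 15 were measured and 0 called, with 3 higher and 12 lower in FGR and a median difference of -1.96 points, where 62.1% of all spans were lower with a median of -1.12, while the median level was 77.0% in control and 77.9% in FGR. Ezh1, a histone methyltransferase of Polycomb, was the one with an unadjusted p under 0.05, at 75.6%, 74.7%, 80% and 84.8%, both FGR libraries higher, with an adjusted p of 0.756.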

How the data were processed

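Whole-genome bisulfite sequencing of hippocampal microglia gave 4 tables, 1 per library. Per the submitters' processing notes, Trim Galore 0.6.5, Bismark and methylKit 1.28.0 were used with the genome build mm10; no source used here gives their parameters. Coverage is a deposited count of reads per cytosine and strand, with a minimum of 5, and the C and T values are a deposited percent of those reads, per the file headers. Multiplied together they gave whole methylated reads, to within 0.02 reads, for 100% of cytosines. Both strands of a CpG were added up, and the most deeply covered 0.1% of CpGs of each library was dropped.

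Gene positions were those of RefSeq for GRCm38.p6 (mm10), with starts from its promoter sequences where listed. Regions needed 3 CpGs and 10 reads in every library. The quasi-binomial model was fitted in R 4.3.3 to all autosomal spans, starts or tiles, with overdispersion moderated by squeezeVar of limma 3.58.1, a trend on coverage, and a lower limit of 1. A floor of 0.01 on the raw overdispersion was chosen on simulated data, after a first fit without it, made on the real data too, had found none of the simulated differences.

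Tested on simulated data with overdispersion varying as fitted, 9, 14, 30 and 44 of 50 spans changed by 20, 30, 40 and 60 points were recovered among 32459, with 7 of 104 calls false. For starts 0 of 50 were recovered at each size among 22566. For tiles 5, 13, 24 and 48 were recovered among 550538, with 77 of 167 calls false.

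The Hox genes, gene lists and tests were chosen with earlier results of these data known. In each cluster the members with the lowest and highest control level, the largest rise and fall and the smallest p were given in full, with the same for starts, and the 3 tiles with the smallest p. Alternatives were limma on log2 ratios with 0.5 added to each count, the replicate number as a block, each library left out, other CpG sets, coverage minimums, filters, extensions and flanks. The values of 1 Hox gene are not reported here and not drawn, although it is included in the counts, medians and cluster levels.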

Additional observations from a re-analysis of the deposited data

How the results depend on the processing

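No Hox span, start or tile was called under any alternative that could be run, and a minimum of 10 reads per CpG left no Hox start to test. Spans held 20 to 2875 reads per library, and a change confined to a few CpGs of a span was not simulated. Without a floor on the overdispersion 1 tile in place of 844 was called over all autosomes, and limma called 0. The replicate block called 602 spans, 379 starts and 1793 tiles over all autosomes, where simulated spans of varying spread gave 617 false of 795 calls, but 0 in Hox, with an adjusted p of 0.0880 at Hoxb4. The labels do not say that the numbers mark a pairing, and the deviations of same-numbered libraries correlated by 0.021 over spans. Leaving out a library called 241 to 913 spans, 172 to 245 starts and 1329 to 1526 tiles over all autosomes and 0 in Hox.

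The cluster differences were 4.23 points in Hoxa and 2.34 in Hoxc at CpGs listed in all 4 libraries, -8.42 in Hoxb, -0.44 in Hoxc and -2.38 in Hoxd at a minimum of 10 reads, and -0.11 in Hoxc by pairs of libraries. The gaps to the flanks were -42.8, -26.8, -51.7 and -35.0 points at CpGs listed in all 4, -41.4, -23.2, -36.2 and -33.8 with 50 kb, -65.0, -39.6, -55.9 and -54.0 with 500 kb, and -26.7 for Hoxb at 10 reads. They were below 0 throughout.

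Signs of span differences turned at CpGs listed in all 4 for 11 of the 22 spans tested, among them Hoxa9 (0.861), Hoxd1 (1.64) and Hoxd12 (-1.25). Among the spans given in full, they also turned without the 2 kb extension for Hoxa9 (7.32), Hoxb4 (17.4) and Hoxd1 (1.27), and with 5 kb for Hoxb13 (-2.27). Among the same spans, leaving out each library gave ranges that cross 0 for Hoxb13 (-0.677 to 4.93), Hoxd1 (-11.6 to 4.78), Hoxa9 (-10.8 to 2.01) and Hoxa11 (-2.30 to 10.6). At shared CpGs they were -10.3 to 13.6 for Hoxd1, -6.37 to 3.87 for Hoxd12 and -2.40 to 4.12 for Hoxa9. For starts they were -0.777 to 0.00080 for Hoxb7, -15.3 to 6.96 for Hoxd4 and -2.15 to 2.0 for Hoxc12. The cause was not tested.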
